A study of Mus musculus with 12 samples.

Results

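Interferon gamma and the genes tied to it in T helper 1 (Th1) cells form a set of 8: Ifng, Tbx21, Eomes, Hlx, Runx3, Ifngr1, Ifngr2 and Irf1. Probes were taken where the gene name printed in the array files equals one of these symbols, and each gene was represented by the probe with the highest mean log2 signal. The set holds 8 of the 30101 names on the array, and 8 of 8 passed the filter on dim probes, among 18631 genes tested. RNA from mouse CD4+ T cells was hybridised to 12 single-colour Agilent arrays, in 4 groups of 3. The immunised CNS group (CD4_CNS_MOG) held CD4+ T cells of C57BL/6 mice, isolated from the central nervous system (CNS) when experimental autoimmune encephalomyelitis (EAE) was at its peak after immunisation with a peptide of myelin oligodendrocyte glycoprotein (MOG). The transferred CNS group (CD4_CNS) held B6.2d2 Th17 cells that had been made in vitro, injected into lymphopenic Rag1-/- mice and taken back out of the CNS at peak EAE. The cultured Th17 group (Th17_culture) held B6.2d2 cells after differentiation in vitro and before transfer. The naive group (Naive) held splenic CD4+ T cells of B6.2d2 mice, which carry a transgenic T cell receptor specific for MOG. The 3 groups from B6.2d2 mice therefore share the transgenic receptor and the immunised mice do not carry it, and Rag1-/- hosts have no T or B cells of their own. The labels name no sort, purity or cytokine mixture for the culture. The series text counts 3 independent experiments, and nothing there says that a replicate number joins samples of different groups.

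Interferon gamma is the defining cytokine of Th1 cells. It binds a receptor made of a ligand-binding chain, encoded by Ifngr1, and a signalling chain, encoded by Ifngr2, and signalling from the receptor induces Irf1 and other interferon response genes. Within T cells, T-bet (Tbx21) drives Ifng transcription together with Runx3, Hlx cooperates with T-bet, and eomesodermin (Eomes) is a related T-box factor best known from CD8 T cells and natural killer (NK) cells. In EAE, Th17 cells can come to express interferon gamma after they enter the CNS.

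The interferon gamma activated site, a promoter element of genes that respond to the cytokine, has the letters TTCNNNGAA. The 250 bases upstream of each RefSeq start site (GRCm38.p6) were searched on both strands for it, and all 8 genes matched the RefSeq promoter table. The letters were found upstream of 2 of 8 genes, Ifng and Irf1, and the same letters were found in 7.02% of all 32851 promoters in the table (2306 promoters). These 2 sequences are shown because one gene encodes the cytokine and the other is known to be induced by it. They are written 5′ to 3′ on the gene's strand with the matched letters in capitals.
Ifng, chr10:118440796-118441045 (+): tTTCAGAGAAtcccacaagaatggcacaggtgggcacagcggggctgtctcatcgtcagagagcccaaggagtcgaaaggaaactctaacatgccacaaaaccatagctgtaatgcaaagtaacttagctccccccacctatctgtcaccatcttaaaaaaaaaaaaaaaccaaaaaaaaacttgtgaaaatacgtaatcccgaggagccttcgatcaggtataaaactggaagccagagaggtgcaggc
Irf1, the upstream of its 2 start sites, chr11:53769764-53770013 (+): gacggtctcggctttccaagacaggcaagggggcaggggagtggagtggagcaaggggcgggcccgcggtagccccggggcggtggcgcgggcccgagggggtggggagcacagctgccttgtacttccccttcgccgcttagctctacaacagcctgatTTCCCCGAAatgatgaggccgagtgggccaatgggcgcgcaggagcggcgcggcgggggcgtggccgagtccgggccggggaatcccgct
The match lies 249 to 241 bases upstream of the Ifng start and 90 to 82 bases upstream of the Irf1 start. The letters GGTGTG, a core of T-box binding sites, were found upstream of 1 of 8 genes, Ifngr2, and in 16.3% of all promoters. The letters TGTGGT, a core of Runx binding sites that can overlap GGTGTG, were found upstream of 1 of 8 genes, Runx3, and in 14.0% of all promoters. A match describes the letters in this window and was not tested as a binding site.

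Each array held 43020 non-control spots, of which 57.1% to 64.9% were well above background, and 0 spots were saturated on any array. All values below are log2 processed signals minus the 75th percentile of the same array, called levels here. That percentile lay between a signal of 658 and 940. Levels of different genes come from different probes and are not set against each other. The arrays sat on 3 slides, each with 1 array of every group at a fixed position, so that slide and replicate number coincide. Position on the slide cannot be told apart from group. The 7 T cell markers (among them Cd3e and Cd4) were well above background on every array, with a summed linear level of 234 to 352 in immunised CNS cells, 154 to 228 in transferred CNS cells, 310 to 387 in cultured Th17 cells and 359 to 421 in naive cells. The 11 macrophage and monocyte markers were all well above background on every CNS array. Their summed level was 410 to 902 in immunised CNS cells and 555 to 824 in transferred CNS cells, against 19.2 to 30.1 in cultured Th17 cells and 24.2 to 98.0 in naive cells. Of 7 microglia markers 6 were called higher and 0 lower in each CNS group over cultured and over naive cells. Of 3 dendritic cell markers tested, 1 was called higher in transferred CNS over naive and over cultured cells. In immunised CNS cells 3 were higher over naive and 2 over cultured cells. For these comparisons 12.8% to 21.2% of all genes were called higher. The CNS samples therefore held RNA of macrophage and microglia genes beside that of T cell genes, and its part in the results below was not tested. Of the macrophage and monocyte markers Itgam went the other way against naive cells, with a mean level of 5.54 there. Its mean was 4.16 in immunised CNS and 3.28 in transferred CNS cells. In such bulk RNA, fewer cells of a type and less RNA per cell cannot be told apart.

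Ifng, the cytokine itself, was high in both CNS groups, low in naive cells and at 3 very different levels in the 3 cultures. Its probe lies at chr10:117882841-117882900 (+, mm9). In immunised CNS cells the levels of replicates 1, 2 and 3 were 5.04, 5.06 and 5.85, with a mean of 5.32 ± 0.46 (SD, n = 3). Transferred CNS cells had 4.81, 3.46 and 3.60, with a mean of 3.96 ± 0.74 (SD, n = 3). Every immunised CNS array lay above every transferred CNS array. Cultured Th17 cells had 1.42, 4.26 and -4.22, with a mean of 0.49 ± 4.32 (SD, n = 3). Naive cells had 1.03, -0.09 and -0.59, with a mean of 0.11 ± 0.83 (SD, n = 3). The culture values span 8.48 log2 units: replicate 2 lay inside the range of the transferred CNS arrays, replicate 1 just above the highest naive array and replicate 3 below every other array of the series.

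The group means of Ifng were ordered immunised CNS, transferred CNS, culture, naive, and no pair of neighbours in that order passed the test. All tests are those of 1 limma model over the 12 arrays, with Benjamini-Hochberg adjustment over 18631 genes and a threshold of 0.05. Immunised CNS cells exceeded naive cells by 5.20 ± 1.60 log2 units (SE, limma adjusted p = 0.0209), a 36.8-fold difference, and the difference was 4.01, 5.16 and 6.44 within slides 1, 2 and 3. That call was lost without immunised CNS replicate 3 (adjusted p = 0.0653), naive replicate 2 (0.0510) or naive replicate 3 (0.0633). The adjusted p was lower with these 6 arrays alone (0.000333), without culture replicate 3 (0.000277) and without all 3 culture arrays (7.3e-05). Immunised CNS cells exceeded cultured Th17 cells by 4.83 ± 1.60 (limma adjusted p = 0.0420), and the within-slide differences of 3.62, 0.80 and 10.07 show how unequal the cultures were. The call held but its size did not, at 6.72 (105-fold, adjusted p = 0.00466) without culture replicate 2 and 2.48 (5.57-fold, 0.0420) without replicate 3, against 28.4-fold with all arrays. It was lost without any other array (0.0532 to 0.115), and was lost with these 6 arrays alone (0.127) and with no filter on dim probes (0.0680).

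Transferred CNS cells exceeded naive cells in Ifng by 3.84 ± 1.60 (limma adjusted p = 0.0711), which missed the threshold although the groups did not overlap and the 3 slides gave 3.78, 3.55 and 4.19. The standard error is shared by all 4 groups and carries the spread of the cultures. With these 6 arrays alone the adjusted p was 0.00173, and without the 3 culture arrays, an alternative chosen after seeing the data, it was 0.000346. It was also under the threshold without culture replicate 2 (0.0209) or replicate 3 (0.00151) and with normexp background correction (0.0344). Against the cultured Th17 cells, transferred CNS cells differed by 3.47 ± 1.60 (limma adjusted p = 0.133), with 3.39, -0.80 and 7.82 within slides 1, 2 and 3. Without culture replicate 2 this difference was 5.36 (adjusted p = 0.0154), and without replicate 3 it was 1.12 (0.330). Cultured Th17 and naive cells differed by 0.37 ± 1.60 (limma adjusted p = 0.874), with 0.39, 4.35 and -3.63 within the slides. The sign depended on the cultures included, since the difference was -0.09 without culture replicate 1, -1.51 without replicate 2 and 2.72 (adjusted p = 0.0224) without replicate 3. Immunised against transferred CNS cells gave 1.36 ± 1.60 (limma adjusted p = 0.678), higher on 3 of 3 slides.

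**Figure D1:**
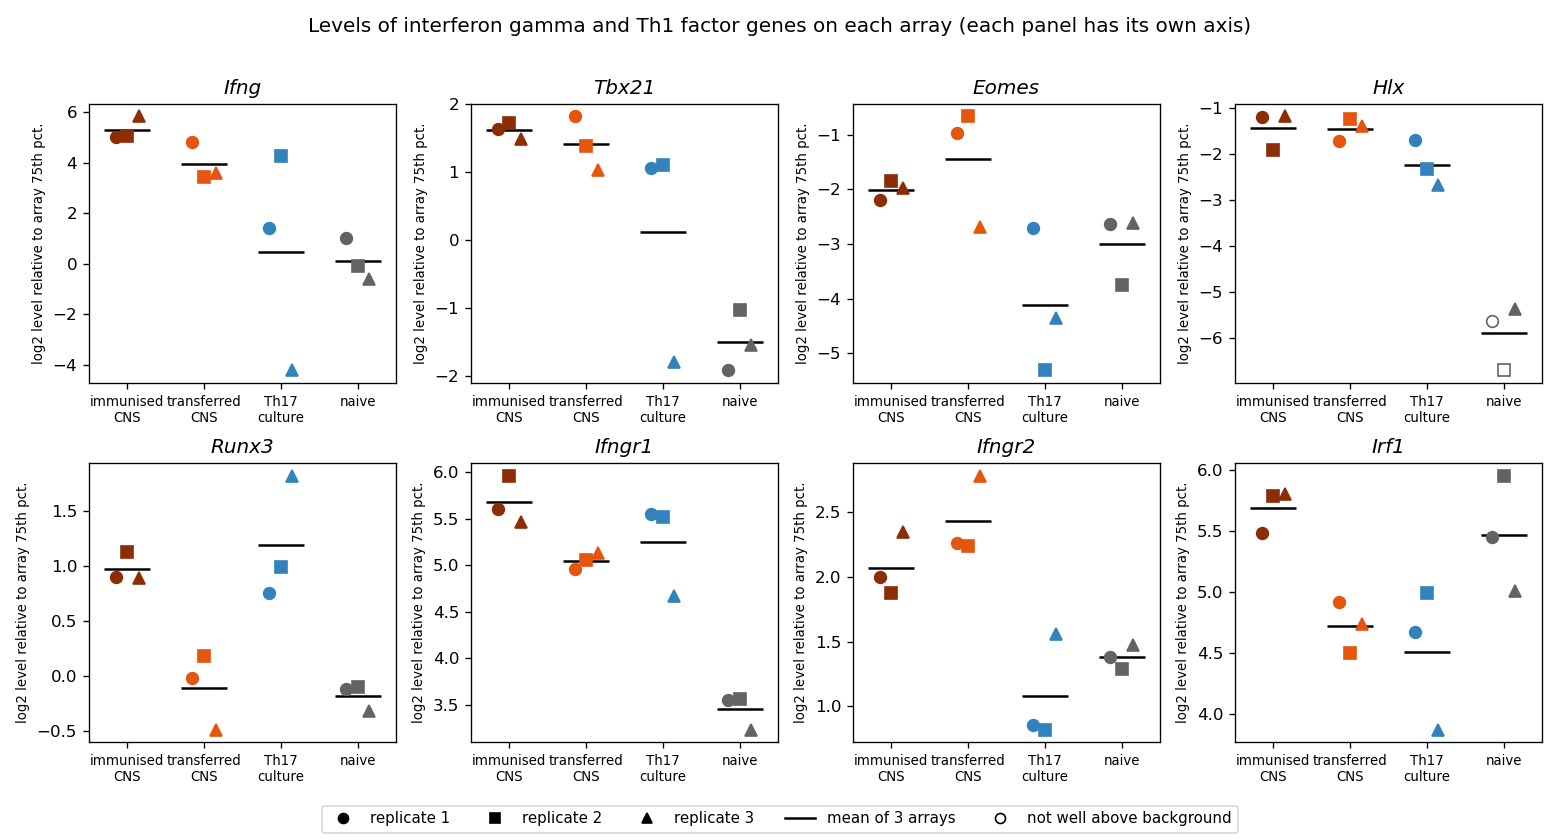
Log2 level relative to the 75th percentile of the array (vertical axis, 1 range per panel) of the 8 genes on the 12 arrays, grouped as immunised CNS, transferred CNS, Th17 culture and naive. Symbols are replicates 1 to 3, bars are means of 3 arrays and open symbols are not well above background. Ifng is at 3.46 or above on all 6 CNS arrays, and the 3 cultures lie at 1.42, 4.26 and -4.22.

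The spread of the cultures was extreme for Ifng, wide for Tbx21 and Eomes, and ordinary for the other members. Only 6 of 18631 genes (0.0322%) had a larger SD over the 3 culture arrays than Ifng. The SD of Tbx21 in culture was 1.66, exceeded by 2.82% of genes, and that of Eomes was 1.32, exceeded by 5.10%. The other 5 members had SDs of 0.42 to 0.58, exceeded by 25.9% to 41.2% of genes. The median SD over all genes tested was 0.21 in immunised CNS cells, 0.26 in transferred CNS cells, 0.35 in cultured Th17 cells and 0.25 in naive cells.

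Culture replicate 3 accounted for the low end. Its level minus the mean of replicates 1 and 2 was -7.06 for Ifng, and only 1 gene, Ms4a4b, had a lower value (-7.55). For Tbx21 the value was -2.88, with 1.26% of genes lower. The same difference was -0.86 for Ifngr1, -0.67 for Hlx and -0.96 for Irf1, and it was positive for Runx3 (0.95) and Ifngr2 (0.72). Eomes followed another order, with replicate 1 at -2.70, replicate 3 at -4.36 and replicate 2 at -5.31, so that the culture highest in Ifng was the lowest in Eomes. Other cytokine genes also separated the cultures. Il4, the type 2 cytokine, was at -1.46, -7.09 and 2.88 in replicates 1, 2 and 3, and had the largest culture SD of all genes tested (5.002). Il17a, the Th17 cytokine, was at 5.46, 5.55 and 2.41. Gzma, which encodes granzyme A, was at 5.51, -0.58 and 7.89. Ms4a4b, Il4, Il17a and Gzma were chosen after their values were seen. Replicate 3 was thus the culture lowest in Ifng, Tbx21 and Il17a and highest in Il4 and Gzma.

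**Figure D2:**
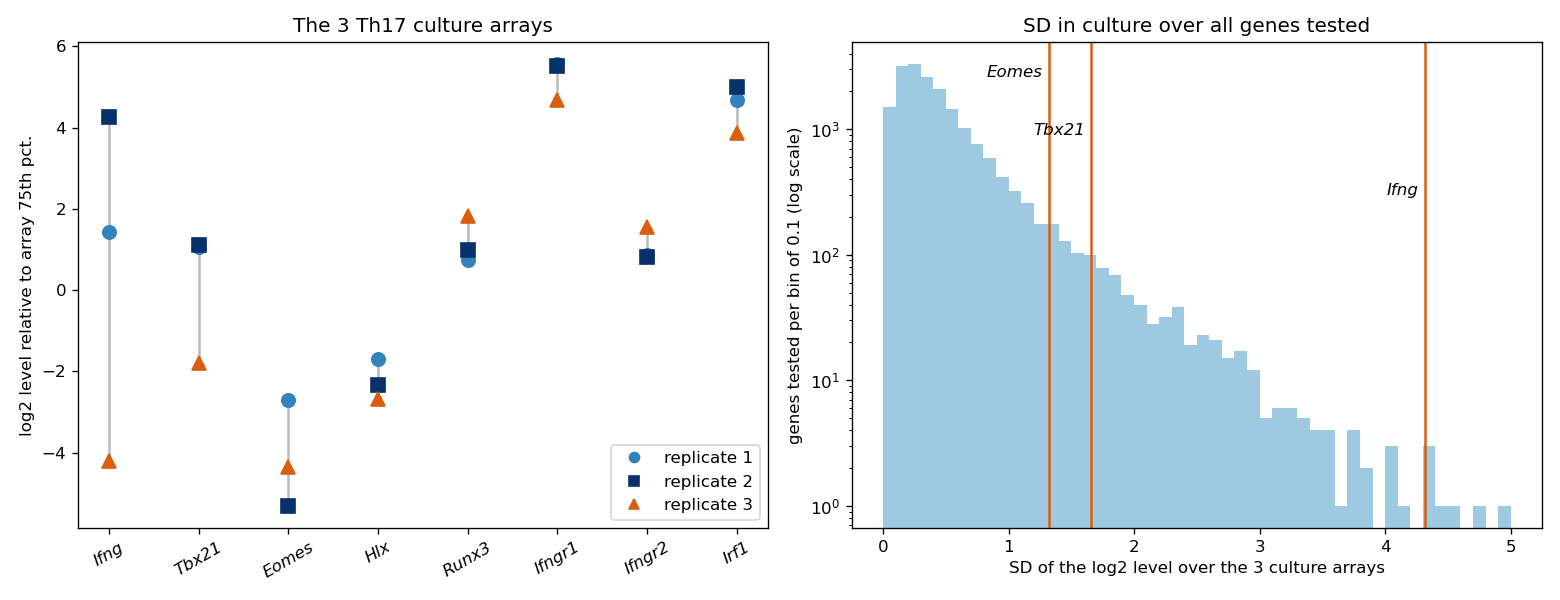
Left, log2 levels of the 8 genes on the 3 Th17 culture arrays (replicates 1 to 3), each gene on its own probe. Right, number of the 18631 tested genes (log axis) by SD over the 3 culture arrays, in bins of 0.1, with lines at Eomes (1.32), Tbx21 (1.66) and Ifng (4.32).

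Ifngr1, which encodes the ligand-binding chain of the interferon gamma receptor, was higher in all 3 other groups than in naive cells. The signal came from a probe at chr10:19329923-19329982 (+, mm9). The levels were 5.60, 5.96 and 5.47 in immunised CNS cells (5.68 ± 0.26, SD, n = 3) and 4.96, 5.06 and 5.13 in transferred CNS cells (5.05 ± 0.08). Cultured Th17 cells had 5.55, 5.52 and 4.67 (5.25 ± 0.50), and naive cells 3.56, 3.56 and 3.23 (3.45 ± 0.19). No naive array reached the lowest of the other 9. Against naive cells, Ifngr1 rose by 2.22 ± 0.24 in immunised CNS cells (limma adjusted p = 5.07e-05), by 1.60 ± 0.24 in transferred CNS cells (0.000412) and by 1.80 ± 0.24 in cultured Th17 cells (0.000239). These are 4.67-fold, 3.03-fold and 3.47-fold differences, of the same sign on 3 of 3 slides. The 3 comparisons share the naive arrays. Among the higher 3 groups no difference passed: immunised against transferred CNS cells gave 0.63 ± 0.24 (adjusted p = 0.187) without overlap, immunised CNS against cultured cells 0.43 ± 0.24 (0.205), and transferred CNS against cultured cells -0.20 ± 0.24 (0.593).

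Ifngr2, which encodes the signalling chain, was higher in both CNS groups than in the cultures and the naive cells. It was read from a probe at chr16:91563982-91564041 (+, mm9). Levels were 1.997, 1.88 and 2.34 in immunised CNS cells (2.07 ± 0.24, SD, n = 3) and 2.26, 2.24 and 2.78 in transferred CNS cells (2.43 ± 0.31). The cultures had 0.85, 0.82 and 1.56 (1.08 ± 0.42), and naive cells 1.38, 1.29 and 1.48 (1.38 ± 0.09). All 6 CNS arrays lay above the 6 others. Ifngr2 rose by 1.35 ± 0.24 in transferred CNS over cultured cells (limma adjusted p = 0.00216), within slides by 1.41, 1.42 and 1.22, and by 1.05 ± 0.24 over naive cells (0.00447). In immunised CNS cells it rose by 0.99 ± 0.24 over cultured cells (limma adjusted p = 0.00976) and by 0.69 ± 0.24 over naive cells (0.0343). The last call was lost without immunised CNS replicate 1 (adjusted p = 0.0652) or 3 (0.128) and without naive replicate 1 (0.0727), 2 (0.0890) or 3 (0.0602), with median scaling (0.0633) and with no filter on dim probes (0.0581). Cultured Th17 against naive cells gave -0.31 ± 0.24 (adjusted p = 0.336), and immunised against transferred CNS cells -0.36 ± 0.24 (0.435).

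Irf1 encodes a transcription factor that interferon gamma induces. On the probe used, its group means stood in the order of Ifng except in naive cells, which were high in Irf1. The probe used lies at chr11:53590746-53590805 (+, mm9). Irf1 was at 5.48, 5.79 and 5.80 in immunised CNS cells (5.69 ± 0.18, SD, n = 3) and at 4.92, 4.50 and 4.74 in transferred CNS cells (4.72 ± 0.21). Cultured Th17 cells had 4.67, 4.989 and 3.87 (4.51 ± 0.58), and naive cells 5.45, 5.95 and 5.01 (5.47 ± 0.47). Naive cells, low in Ifng, thus overlapped immunised CNS cells in Irf1, a difference of 0.22 ± 0.31 (limma adjusted p = 0.575). Irf1 rose by 1.18 ± 0.31 in immunised CNS over cultured cells (limma adjusted p = 0.0149), a call lost without immunised CNS replicate 3 (0.0514). In cultured Th17 cells Irf1 fell by 0.96 ± 0.31 relative to naive cells (limma adjusted p = 0.0300), with -0.77, -0.96 and -1.13 within the slides. This call ended when culture replicate 3 was left out (adjusted p = 0.0860), without naive replicate 1 (0.0626) or 2 (0.107), with median scaling (0.0948) and with these 6 arrays alone (0.106). Between the 2 CNS groups the arrays did not overlap, and the difference of 0.97 ± 0.31 missed the threshold (limma adjusted p = 0.114). It passed with these 6 arrays alone (0.0388) and without culture replicate 3 (0.0428). Transferred CNS against naive cells gave -0.75 ± 0.31 (0.0666), also without overlap. That difference passed without naive replicate 3 (adjusted p = 0.0342), without culture replicate 3 (0.0245), without all 3 culture arrays (0.0311) and with quantile normalization (0.0327). A second Irf1 probe, of another transcript variant, was well above background on 8 of 12 arrays and not used. Its group means stood in another order, at -4.81 in immunised CNS, -5.01 in transferred CNS, -6.24 in cultured and -5.56 in naive cells. With the mean of both probes, transferred CNS against naive cells gave -0.10 (adjusted p = 0.789).

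Tbx21, which encodes T-bet, the lineage factor of Th1 cells, was higher in both CNS groups than in naive cells. Its probe lies at chr11:96959417-96959476 (-, mm9). Levels were 1.63, 1.72 and 1.48 in immunised CNS cells (1.61 ± 0.12, SD, n = 3) and 1.81, 1.37 and 1.02 in transferred CNS cells (1.40 ± 0.40). The cultures had 1.05, 1.10 and -1.80 (0.12 ± 1.66), and naive cells -1.92, -1.03 and -1.55 (-1.50 ± 0.44). Cultures 1 and 2 lay within the range of the transferred CNS arrays and culture 3 within the naive range. Against naive cells Tbx21 rose by 3.11 ± 0.64 in immunised CNS cells (limma adjusted p = 0.00262), an 8.64-fold difference, and by 2.90 ± 0.64 in transferred CNS cells (0.00379), a 7.47-fold difference. Within slides 1, 2 and 3 these were 3.55, 2.75 and 3.03, and 3.73, 2.40 and 2.57. Cultured Th17 cells exceeded naive cells by 1.62 ± 0.64 (limma adjusted p = 0.0675), and by 2.58 (0.000107) without culture replicate 3. Median scaling also brought this difference under the threshold (adjusted p = 0.0491). Against the cultures, immunised CNS cells gave 1.49 ± 0.64 (adjusted p = 0.101) and transferred CNS cells 1.28 ± 0.64 (0.164). These became 1.98 (0.0473) and 1.78 (0.0784) without culture replicate 2, and 0.54 (0.187) and 0.33 (0.430) without replicate 3. The 2 CNS groups overlapped, with a difference of 0.21 ± 0.64 (adjusted p = 0.894).

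Eomes, the T-box factor of CD8 T and NK cells, was higher in both CNS groups than in the cultures. Its probe lies at chr9:118394425-118394484 (+, mm9). Levels were -2.19, -1.86 and -1.98 in immunised CNS cells (-2.01 ± 0.17, SD, n = 3) and -0.98, -0.66 and -2.69 in transferred CNS cells (-1.44 ± 1.09). Cultured Th17 cells had -2.70, -5.31 and -4.36 (-4.12 ± 1.32), and naive cells -2.63, -3.76 and -2.62 (-3.004 ± 0.65). Transferred CNS replicate 3 lay within the naive range and just above culture replicate 1. Eomes rose by 2.68 ± 0.67 in transferred CNS over cultured cells (limma adjusted p = 0.0136), with 1.72, 4.65 and 1.67 within the slides. This call was lost without transferred CNS replicate 2 (adjusted p = 0.0522) and with these 6 arrays alone (0.0637). Immunised CNS cells exceeded cultured cells by 2.11 ± 0.67 (limma adjusted p = 0.0345). Leaving out any immunised CNS replicate (adjusted p = 0.0724 to 0.0869) or culture replicate 2 (0.104) or 3 (0.0831) ended this call, as did the 6 arrays alone (0.0549) and no filter on dim probes (0.0571). Over all alternatives the differences from culture ran from 1.22 to 2.83 in immunised CNS and from 1.70 to 3.39 in transferred CNS cells, lowest with normexp background correction and highest without culture replicate 1. Against naive cells, immunised CNS cells gave 0.995 ± 0.67 (adjusted p = 0.239, and 0.0448 with these 6 arrays alone), transferred CNS cells 1.56 ± 0.67 (0.0767, and 0.0225 without transferred CNS replicate 3, 0.0350 without culture replicate 1, 0.0341 without all 3 cultures or 0.0326 with normexp) and cultured Th17 cells -1.12 ± 0.67 (0.209, and 0.0372 without culture replicate 1). The other Eomes probe was dimmer, well above background on 7 of 12 arrays, and its group means stood in the same order.

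Markers of NK and CD8 T cells, which also express Eomes, were read beside these results and gave no single pattern. Of the 8 NK cell markers 6 passed the filter. Among them 3 were called higher and 1 lower in immunised CNS over naive cells, 4 higher and 1 lower in transferred CNS over naive cells, and 3 higher and 0 lower in each CNS group over cultured cells. Over naive cells, 20.6% of all genes were higher and 27.7% lower in immunised CNS cells, and 21.2% and 26.5% in transferred CNS cells. Over cultured cells the shares were 13.7% and 17.8% in immunised CNS and 12.8% and 15.5% in transferred CNS cells. The summed linear level of all 8 NK cell markers was 9.10, 12.02 and 14.2 in immunised CNS replicates 1 to 3 and 38.6, 14.8 and 4.76 in transferred CNS replicates, against 46.4, 1.43 and 238 in cultures and 7.02, 9.69 and 3.91 in naive cells. In that sum both CNS groups overlapped the cultures, and immunised CNS replicate 1 and transferred CNS replicate 3 lay inside the naive range. The list includes Gzma and Prf1, genes of cytotoxic granules that T cells also use. Without these 2, a division made after the values were seen, the sum over the 6 receptor genes was 1.67, 1.74 and 1.11 in immunised CNS replicates and 2.34, 1.11 and 0.353 in transferred CNS replicates, against 0.0515, 0.0785 and 0.0387 in cultures and 0.122, 0.0484 and 0.167 in naive cells. All 6 CNS arrays were above the others in the smaller sum, but not in each of its genes. Klrb1b averaged 0.12 in immunised CNS and -1.46 in transferred CNS cells, against -7.54 in cultures and -5.67 in naive cells. Ncr1, the defining NK cell receptor, averaged -6.80 in immunised CNS and -5.42 in transferred CNS cells, against -8.08 in cultures and -6.70 in naive cells, and was well above background on only 2 arrays, both of transferred CNS cells. Klra4 reached down to -7.73 in transferred CNS cells, inside the naive range of -7.88 to -3.95. The CD8 genes also differed from each other. Cd8a was well above background on 3 of 3 immunised CNS arrays, 1 of 3 transferred CNS arrays, 0 of 3 cultures and 3 of 3 naive arrays. Cd8b1 was well above background on all 12 arrays, with means of -1.82 in immunised CNS, -2.91 in transferred CNS and -1.85 in cultured cells, and highest in naive cells at 0.77. Their part in the Eomes, Ifng and Tbx21 results was not tested.

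Hlx, a homeobox gene that cooperates with T-bet, showed the clearest step from naive cells to all other groups. The Hlx probe matches chr1:186554630-186554689 (-, mm9). Levels were -1.20, -1.91 and -1.19 in immunised CNS cells (-1.43 ± 0.42, SD, n = 3) and -1.73, -1.25 and -1.39 in transferred CNS cells (-1.46 ± 0.25). The cultures had -1.71, -2.33 and -2.69 (-2.24 ± 0.50). Naive cells had -5.63, -6.71 and -5.38 (-5.91 ± 0.71), and only replicate 3 was well above background there. All 9 other arrays lay above the highest naive array. With the naive values raised to the lowest level well above background on each array, Hlx was at least 16.3-fold higher in immunised CNS cells (limma adjusted p = 8.23e-06), at least 16.0-fold higher in transferred CNS cells (8.74e-06) and at least 9.29-fold higher in cultured Th17 cells (3.96e-05) than in naive cells. The adjusted p values belong to the fitted differences with naive values as measured, which were 22.2-fold, 21.9-fold and 12.7-fold. Within the slides the differences between single arrays, also as measured, ranged from 2.69 to 5.47. These folds hold for the background as deposited. With normexp and its offset of 50, which raises dim signals, the fitted log2 differences from naive cells were 2.08, 2.09 and 1.52, below the bounds above and still called. Immunised CNS against cultured cells gave 0.81 ± 0.37 (adjusted p = 0.125), transferred CNS against cultured cells 0.79 ± 0.37 (0.144) and immunised against transferred CNS cells 0.02 ± 0.37 (0.984).

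Runx3, which works with T-bet at the Ifng locus, was higher in immunised CNS and cultured Th17 cells than in naive cells, while transferred CNS cells overlapped naive cells. Its probe lies at chr4:134733846-134733905 (+, mm9). Runx3 was at 0.90, 1.13 and 0.89 in immunised CNS cells (0.97 ± 0.13, SD, n = 3) and at -0.02, 0.19 and -0.49 in transferred CNS cells (-0.11 ± 0.35). Cultured Th17 cells had 0.75, 0.99 and 1.82 (1.19 ± 0.56), and naive cells -0.12, -0.10 and -0.32 (-0.18 ± 0.12). Every immunised CNS and culture array lay above every transferred CNS and naive array. Runx3 rose over naive cells by 1.15 ± 0.27 in immunised CNS cells (limma adjusted p = 0.00549) and by 1.37 ± 0.27 in cultured Th17 cells (0.00257). In transferred CNS cells it fell by 1.29 ± 0.27 relative to the cultures (limma adjusted p = 0.00559), with -0.77, -0.81 and -2.31 within the slides. The difference from naive cells there was 0.07 ± 0.27 (adjusted p = 0.851). Between the CNS groups the difference was 1.08 ± 0.27, or 2.11-fold, with 0.92, 0.94 and 1.38 within the slides, and missed the threshold (limma adjusted p = 0.0616). It passed with quantile normalization (0.0465), in the authors' deposited matrix (0.0463), with these 6 arrays alone (0.0449), without culture replicate 3 (0.0119) and without all 3 culture arrays (0.0180). A dimmer Runx3 probe had group means of -1.22 in immunised CNS, -1.80 in transferred CNS, -1.15 in cultured and -2.03 in naive cells, the same 2 groups above the others.

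Counted over the 8 genes, the calls were most numerous for immunised CNS over naive cells. There 6 of 8 were higher (Ifng, Tbx21, Hlx, Runx3, Ifngr1 and Ifngr2), where 20.6% of all genes tested were called higher, and 0 of 8 were lower, where 27.7% were. For transferred CNS over naive cells 4 of 8 were higher (Tbx21, Hlx, Ifngr1 and Ifngr2) against 21.2% of all genes, and 0 of 8 lower against 26.5%. Cultured Th17 over naive cells had 3 of 8 higher (Hlx, Runx3 and Ifngr1) against 19.7% of all genes, and 1 of 8 lower (Irf1) against 20.4%. These 3 comparisons share the naive arrays. For immunised CNS over cultured cells 4 of 8 were higher (Ifng, Eomes, Ifngr2 and Irf1) against 13.7% of all genes, and 0 of 8 lower against 17.8%. For transferred CNS over cultured cells 2 of 8 were higher (Eomes and Ifngr2) against 12.8% of all genes, and 1 of 8 lower (Runx3) against 15.5%. These 2 comparisons share the culture arrays. Between immunised and transferred CNS cells 0 of 8 were called in either direction by limma, against 1.85% of all genes higher and 1.37% lower. The arrays of Ifng, Runx3, Ifngr1 and Irf1 did not overlap between these groups, each higher in immunised CNS cells. How many of all genes separate in this way was not counted, so this describes those genes and not the set. Marker genes differed there as well. The summed linear level of the 6 neutrophil markers was 403 to 499 in immunised CNS cells against 5.61 to 164 in transferred CNS cells, with 1 of 6 called higher, and S100a8 averaged 7.28 against 3.23. Of the B cell markers 2 of 4 were called higher, of the T cell markers 1 of 7, of the CD8 T cell markers 1 of 2 and of the macrophage markers 0 of 11, and 0 of these were lower. Their part in the differences between the CNS groups was not tested. With the slide as a block the number called was 6, 4, 4, 4, 3 and 0 in the same order of comparisons.

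**Figure D3:**
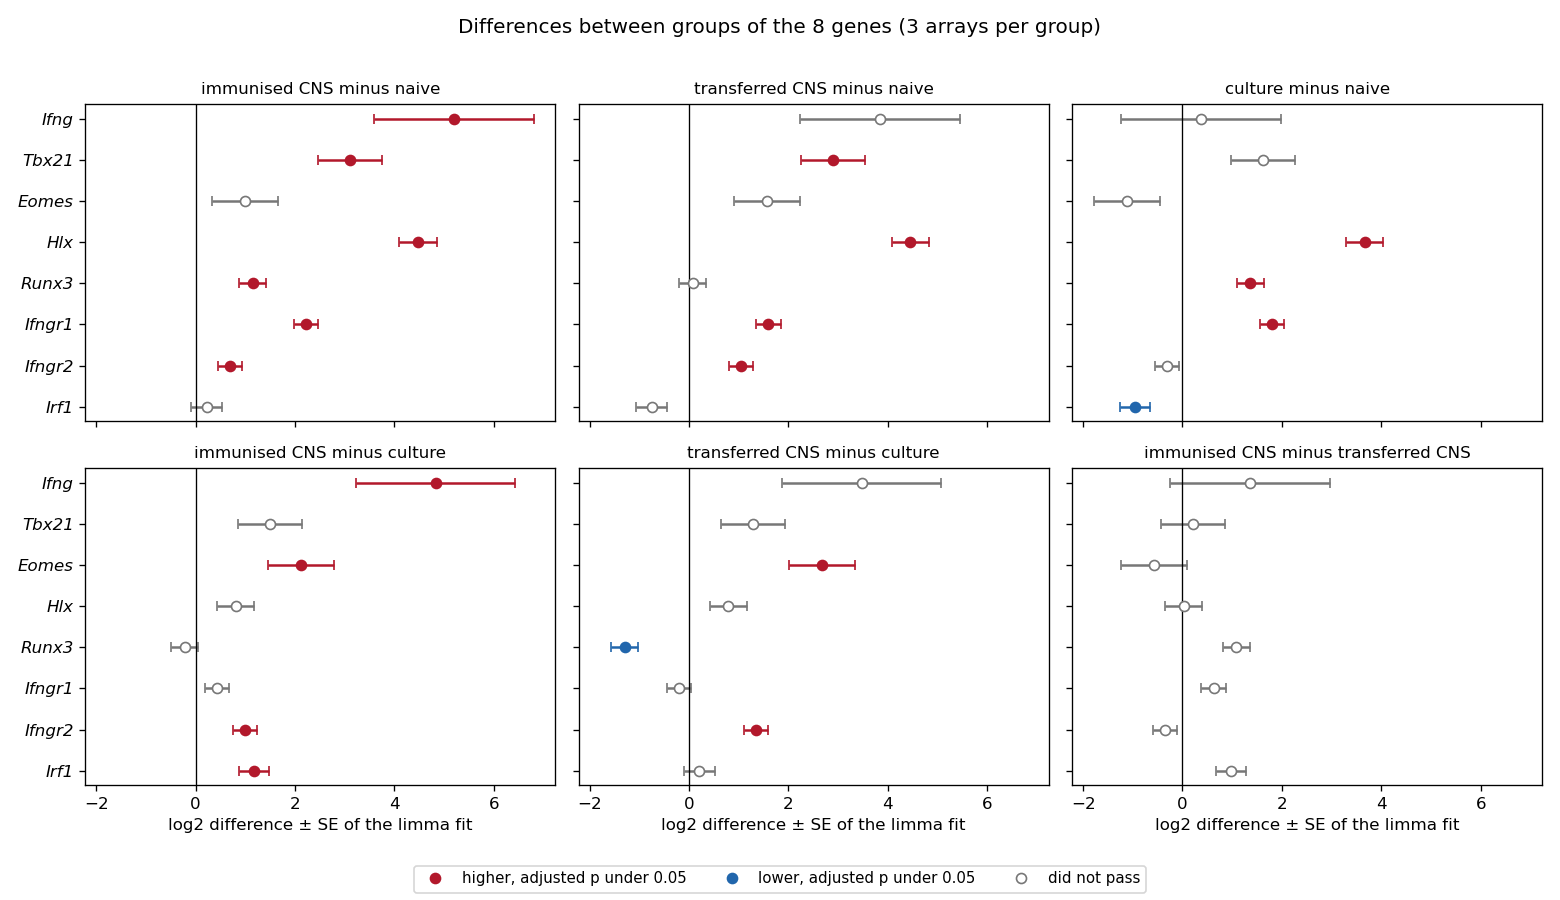
Log2 difference ± SE of the limma model (horizontal axis) for the 8 genes in the 6 comparisons, 3 arrays per group. Filled points passed an adjusted p of 0.05 (red higher, blue lower) and open points did not. Hlx and Ifngr1 are filled in all 3 comparisons with naive cells, and no point is filled between the CNS groups.

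Genes that interferon gamma signals through or induces were read from a list of 29, all tested. In immunised CNS over naive cells 8 rose and 1 fell, where 20.6% of all genes rose and 27.7% fell, with a median difference of 0.33 over the list and -0.19 over all genes tested. Among those that rose were the chemokine genes Cxcl9 (6.75 ± 0.66, limma adjusted p = 2.34e-05) and Cxcl10 (5.81 ± 1.05, 0.00120), Irf8 (3.80 ± 0.43, 6.68e-05), a transcription factor of myeloid and B cells, and Nos2 (3.51 ± 0.63, 0.00111), the inducible nitric oxide synthase. The gene that fell was Jak1, a receptor kinase (-0.66). In transferred CNS over naive cells 7 rose and 4 fell, where 21.2% and 26.5% of all genes did, with medians of -0.13 and -0.12. Here Irf8 (4.05 ± 0.43, limma adjusted p = 4.17e-05), Cxcl10 (4.31 ± 1.05, 0.00648), Cxcl9 (4.18 ± 0.66, 0.000508) and Cd274 (1.85 ± 0.44, 0.00536), which encodes PD-L1, rose. Jak1, Irf9, Igtp and Ifi47 fell, by 1.10 to 1.43. Leaving out 1 array left the counts that rose within 1.5 times and moved those that fell. The 4 that fell in transferred CNS cells became 2 without naive replicate 2 or transferred CNS replicate 3, and 7 without culture replicate 3 or all 3 cultures. Jak1 in immunised CNS cells lost its call without naive replicate 2 or 3, transferred CNS replicate 2 or immunised CNS replicate 1 or 3, and the count of 1 became 2 without culture replicate 3. It was 0 with median scaling or with no filter on dim probes, and 2 with quantile normalization or the series matrix.

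Cultured Th17 cells against naive cells had 4 genes of that list higher and 4 lower, where 19.7% and 20.4% of all genes were. The medians were -0.10 over the list and -0.08 over all genes. Those that rose included Socs1 (1.96 ± 0.26, limma adjusted p = 0.000206), an inhibitor of the receptor's kinases, and Irf8 (1.42 ± 0.43, 0.0237), and those that fell included Nlrc5 (-1.92 ± 0.52, 0.0140), a regulator of MHC class I genes. In immunised CNS over cultured cells 12 rose and 3 fell, where 13.7% and 17.8% of all genes did, with medians of 0.82 and -0.17. Cxcl10 was at least 300.1-fold higher there (limma adjusted p = 0.000207), with 2 of 3 cultures well above background, and Ciita, the regulator of MHC class II genes, rose by 2.44 ± 0.64 (0.0159). Socs1, Ptpn2 and Jak2 fell, by 1.61, 1.20 and 0.76. In transferred CNS over cultured cells 5 rose and 2 fell, where 12.8% and 15.5% of all genes did, with medians of -0.11 and -0.10. Cxcl10 was at least 106.0-fold higher there (limma adjusted p = 0.000789). Both Cxcl10 folds are taken over the mean of unequal cultures, whose SD was 2.67. The log2 differences of transferred CNS from cultured cells, as measured, were 7.43, 4.05 and 9.69 within slides 1, 2 and 3. Between the CNS groups 0 of 29 were called by limma, where 1.85% of all genes were called higher and 1.37% lower. The median was 0.64 against -0.04 over all genes. The number called was 4, all higher in immunised CNS cells, with the 6 arrays alone, and 1 with normexp, without culture replicate 2 or 3, or without all 3 cultures. The 12 genes higher in immunised CNS than in cultured cells became 4 without immunised CNS replicate 1 or 3 and 7 with no filter on dim probes. In transferred CNS against cultured cells the 5 higher became 3 without culture replicate 3 or transferred CNS replicate 2 or 3, and the 2 lower became 4 without culture replicate 3 and 1 without transferred CNS replicate 1 or 2, with no filter, with the mean of a gene's probes or with the 6 arrays alone. In the cultures against naive cells the 4 higher became 2 without naive replicate 3 or culture replicate 3 or with the 6 arrays alone. The 4 lower became 2 without culture replicate 3, transferred CNS replicate 2 or immunised CNS replicate 1, 2 with median scaling or no filter, and 1 with the 6 arrays alone. Macrophages are a known source of Cxcl9, Cxcl10, Nos2, Irf8 and Ciita transcripts, and 10 of the 11 macrophage markers also rose in each CNS group over cultured and over naive cells. The remaining marker, Itgam, fell relative to naive cells in both CNS groups. The part of macrophages, microglia and dendritic cells in these counts was not tested.

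Genes that induce Th1 cells or that Th1 cells use as effectors came from a list of 28, of which 27 were tested (Twist1 was too dim). In immunised CNS over naive cells 22 of 27 rose and 2 fell, where 20.6% and 27.7% of all genes did, with a median difference of 3.49 against -0.19 over all genes. The 2 that fell became 1 without naive replicate 1 or 3 or immunised CNS replicate 1 or 3. In transferred CNS over naive cells 18 rose and 3 fell, where 21.2% and 26.5% did, with a median of 2.49 against -0.12. In cultured Th17 over naive cells 14 rose and 2 fell, where 19.7% and 20.4% did, with a median of 1.05 against -0.08, and the 2 that fell became 4 with quantile normalization or the series matrix and 1 with normexp. Among the highest were Havcr2, the inhibitory receptor TIM-3, which was at least 109.1-fold higher in immunised CNS cells (limma adjusted p = 4.35e-06), at least 90.7-fold in transferred CNS cells (5.37e-06) and at least 65.3-fold in cultured cells (1.09e-05). Bhlhe40, a transcription factor of activated T cells, was higher by 6.61 ± 0.31 in immunised CNS cells (3.11e-07) and by 6.37 ± 0.31 in cultured cells (4.85e-07). The chemokine gene Ccl3 was higher by 9.25 ± 0.90 in immunised CNS cells (limma adjusted p = 2.27e-05) and by 8.82 ± 0.90 in transferred CNS cells (3.1e-05). Of 11 macrophage markers, 10 rose and 1 fell in each CNS group over naive cells, and their part in these counts was not tested. The receptors for interleukin 12, the cytokine that induces Th1 cells, did not move together. Il12rb1 rose in all 3 comparisons with naive cells, by 2.08, 1.74 and 3.20, and Il12rb2 rose in immunised CNS cells (1.19) and cultures (3.35), while transferred CNS cells gave 0.79 (limma adjusted p = 0.0646).

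Against the cultures the same list had members moving both ways. In immunised CNS cells 10 rose and 3 fell, where 13.7% and 17.8% of all genes did. The 3 that fell became 1 without culture replicate 1 or immunised CNS replicate 1. The median was 0.74 against -0.17 over all genes. Cxcr3, the chemokine receptor of Th1 cells, rose by 5.88 ± 1.34 (limma adjusted p = 0.00757) over cultures whose SD was 3.61. Tnf rose by 3.39 ± 0.82 (0.0104), and Il12rb2 fell by 2.15 ± 0.32 (0.000687). In transferred CNS cells 8 rose and 6 fell, where 12.8% and 15.5% of all genes did, with a median of 0.28 against -0.10. Fasl, the ligand of the death receptor Fas, rose by 3.54 ± 0.36 (limma adjusted p = 7.2e-05) and Xcl1, a chemokine gene, was at least 16.3-fold higher (7.41e-05), while Il12rb2, Cxcr6, Il12rb1, Stat4, Il27ra and Ets1 fell, by 2.56 to 1.10. Between the CNS groups 3 rose and 0 fell, where 1.85% and 1.37% of all genes did, with a median of 0.43 against -0.04. Those that rose were Gzmb, which encodes granzyme B, by 2.89 ± 0.64 (limma adjusted p = 0.0383), Cxcr6 by 1.74 ± 0.35 (0.0251) and Hopx by 1.56 ± 0.24 (0.00631). This count was 5 without culture replicate 3 or all 3 cultures and 1 without transferred CNS replicate 2 or 3 or immunised CNS replicate 1 or 2. Ccl3 and Ccl4 are also macrophage chemokines. Of the 11 macrophage markers, 10 were called higher in each CNS group over cultured and over naive cells, and 0 were called between the CNS groups. The neutrophil and B cell markers that differed between the CNS groups were given with the counts over the 8 genes. The part of all these markers in the counts of the Th1 list was not tested.

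**Figure D4:**
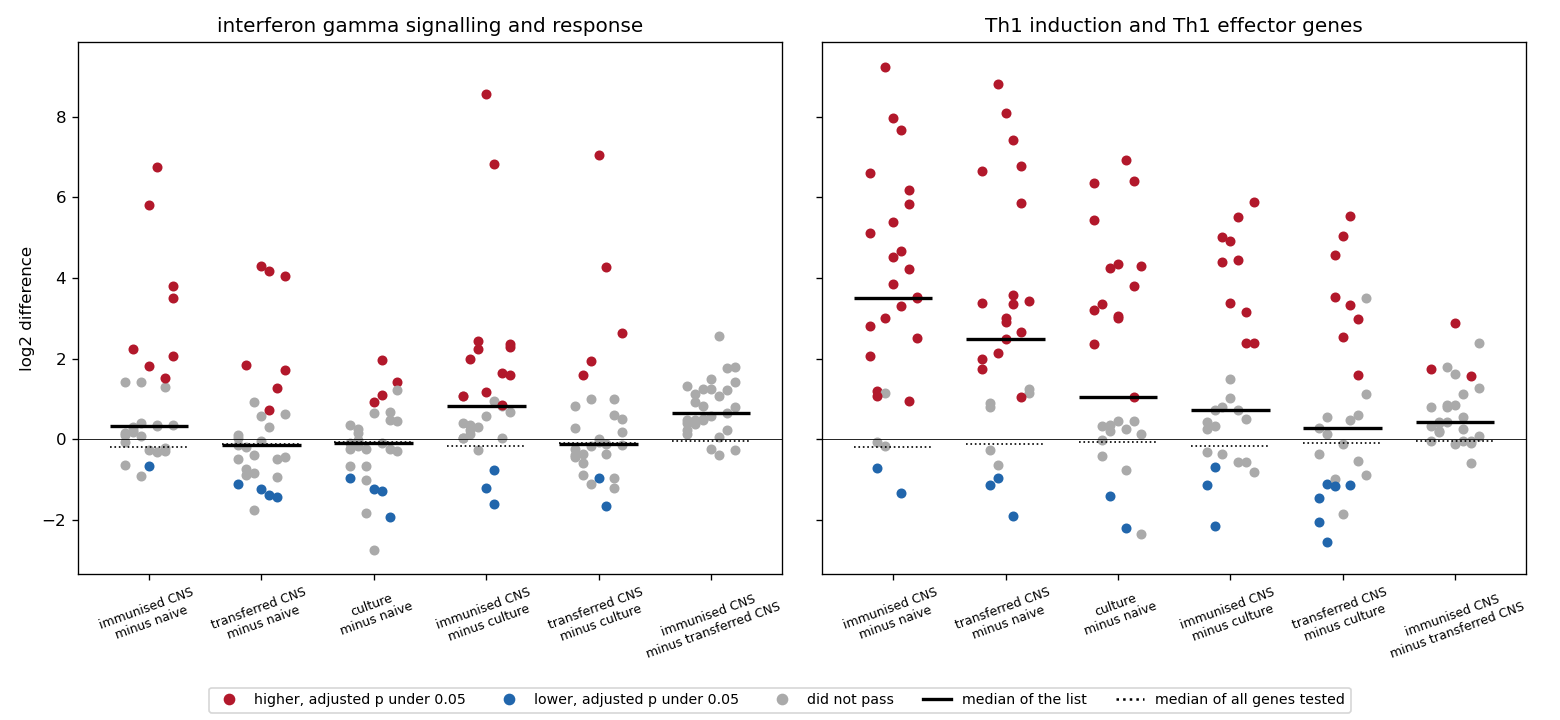
Log2 difference (vertical axis) of each gene on the interferon gamma list (left, 29 genes) and the Th1 list (right, 27 genes) in the 6 comparisons. Red and blue points passed an adjusted p of 0.05, grey did not, the solid bar is the list's median and the dotted bar that of all genes tested. The Th1 list's median is 3.49, 2.49 and 1.05 against naive cells, and 0.74, 0.28 and 0.43 in the other 3 comparisons.

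The genes whose levels over the 12 arrays were most like those of Ifng were S100a4, Tnf, Rab43 and Serpina3g, with Pearson r of 0.97, 0.96, 0.96 and 0.95. These coefficients describe 12 arrays that fall into 4 groups and carry no test. S100a4, which encodes a calcium-binding protein, was at 4.73, 6.36 and 0.80 in cultures 1 to 3, and Tnf, the tumour necrosis factor gene, at 0.90, 2.26 and -1.88, the order in which Ifng stood there. For Tbx21 the closest were 1700037F03Rik, ENSMUST00000166944, Smpdl3b and Serpina3g (r = 0.96 for each), and Serpina3g, a serine protease inhibitor gene, was common to both lists. It was at 3.02, 3.44 and -0.99 in the 3 cultures. For Eomes the closest were Slco2a1, Tmem54, Fcrl1 and Mvb12b (r = 0.91, 0.91, 0.90 and 0.90), none of them among the genes closest to Ifng or Tbx21.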

How the data were processed

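RNA was amplified and labelled with Cy3, per the labels' protocols. The authors deposited intensity values of every spot made with Agilent Feature Extraction 10.7.3.1, per the file headers, with background subtracted on each array and nothing done across arrays. Intensity values in the deposited series matrix, whose normalization is not given in the sources used here, served as an alternative. Marked outlier spots were left out and repeated spots averaged, which left 39405 of 39429 probes. Log2 processed signals were centred on the 75th percentile of the array's non-control probes. A gene stayed in the test where its brightest probe exceeded background clearly (the software's own call) on every array of 1 group or more. All 12 arrays entered 1 limma 3.58.1 model in R 4.3.3 (lmFit and eBayes), with Benjamini-Hochberg adjustment over 18631 genes, after testing on simulated data. The simulation gave a gene the same spread in all 4 groups, so it did not test unequal spreads such as that of Ifng. Figures used matplotlib 3.10.9. The number of arrays limits the precision. Each p-value sets a difference against a spread within groups that is estimated from all 4 groups, including those not compared.

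Where a group was not well above background on every array, a called fold is given as a lower bound, with dim values raised to the lowest signal well above background on that array (levels of -5.95 to -5.17). Such a bound holds only for the background as deposited, and with normexp the Hlx differences fell below it. The bounds for Cxcl10, Havcr2 and Xcl1 rest on the same background and are not set against normexp values here. Probe positions are those of the file headers' mm9 build, and whether a probe lies in an exon or UTR was not analysed here. Alternatives were median scaling, quantile normalization, normexp background correction (offset 50), the series matrix, other filters, the mean of a gene's probes, a slide block, only the 6 arrays compared, and leaving out each array. The 8 genes, the 2 pathway lists and the 8 marker lists were chosen with earlier results of these data known. By rule the text names the 8 genes, the 4 genes most correlated with Ifng, Tbx21 and Eomes, and called genes of the pathway lists with the largest differences, up to 4 per list and comparison. Other list members are named to describe the counts, and the receptors of interleukin 12 were chosen after their values were seen. One item of the interferon gamma list is not reported here and was left out of its counts.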

Additional observations from a re-analysis of the deposited data

How the results depend on the processing

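Over the 6 comparisons the number of the 8 genes called was the same or within 1.5 times of the reported number under every alternative not named here. Between immunised and transferred CNS cells, 0 were called as reported, 1 with quantile normalization, with the series matrix or without all 3 Th17_culture arrays (added after seeing the data), and 2 with only the 6 arrays compared. For transferred CNS against naive cells, 4 were called as reported and 7 (6 higher, 1 lower) without all 3 Th17_culture arrays. For immunised CNS against cultured cells, 4 became 2 with no filter on dim probes and 2 with only the 6 arrays. Leaving out each array in turn gave 4 to 6 calls for immunised CNS against naive, 4 to 6 for transferred CNS against naive, 3 to 5 for culture against naive, 1 to 4 for immunised CNS against culture, 2 to 4 for transferred CNS against culture and 0 to 2 between the CNS groups. Differences changed sign for 6 gene and comparison pairs when 1 array was left out. Ifng between culture and naive ran from -1.51 (without Th17_culture replicate 2) through -0.09 (without replicate 1) to 2.72 (without replicate 3). Irf1 between transferred CNS and culture ran from -0.11 to 0.45, Irf1 between immunised CNS and naive from -0.0088 to 0.46, Runx3 between transferred CNS and naive from -0.075 to 0.26, and Runx3 between immunised CNS and culture from -0.43 to 0.10. Hlx between the CNS groups ran from -0.12 to 0.26 and was -0.017 with normexp. None of these differences was called as reported, and the cause was not tested. Median scaling moved the median difference of all genes between culture and naive to 0.03, against -0.08 as reported, and between transferred CNS and culture to -0.21, against -0.10. Over all genes, 344 were higher and 256 lower between the CNS groups as reported, 221 and 150 with no filter, 290 and 161 with median scaling, 666 and 552 without all 3 Th17_culture arrays, and 118 to 721 and 75 to 573 with 1 array left out, while 2882 lower between transferred CNS and culture became 1622 with only the 6 arrays. The deviations of same-numbered samples from their group means correlated at -0.20 to 0.20 over genes, so the replicate numbers were not taken as pairs. The fit with the replicate block, which is also the slide, called 6, 4, 4, 4, 3 and 0 of the 8 genes in the order of comparisons above, the reported numbers, and changed no other count by over 1.5 times except the interferon gamma list in immunised CNS against naive cells, where 2 in place of 1 were lower. Precision is limited by 3 arrays per group and, for Hlx in naive cells, by signal near background.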
